A study of Mus musculus with 122 samples.

Results

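RAD21 ChIP-seq of 2 mouse embryonic stem cell lines was compared between cells that kept endogenous CTCF and cells in which it was degraded. The members were the 8 RAD21 libraries of the CTCF line and the CTCFL line, in condition D and condition ID with 2 replicates each, of 122 samples in the series. They are defined by their labels, with no measured value in the rule. Each ID library was set beside the D library of the same line and replicate number, which gave 4 pairs. The question was where cohesin peaks stayed, were lost or appeared once CTCF was degraded, and what lies at those places.

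RAD21 is the kleisin subunit that closes the cohesin ring, the complex that holds sister chromatids together and extrudes loops of chromatin. In the loop extrusion model cohesin slides along DNA until it meets CTCF, a zinc finger protein that binds a directional motif, so that in embryonic stem cells most cohesin peaks lie on CTCF sites. CTCFL (BORIS) is the germline paralog of CTCF with similar zinc fingers and different ends.

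All cells derived from E14Tg2a, a male (XY) 129/Ola mouse embryonic stem cell line. Both alleles of endogenous Ctcf carried an auxin-inducible degron and eGFP, and the plant F-box protein Tir1 was expressed from Rosa26. A doxycycline-inducible transgene at the Tigre locus encoded Flag-CTCF-mRuby2 in the CTCF line and Flag-CTCFL-mRuby2 in the CTCFL line. Cells in D received doxycycline (Dox, 1 µg/ml) and thus made the transgene beside endogenous CTCF. Cells in ID received indole-3-acetic acid (IAA, 500 µM) and Dox, so that endogenous CTCF was degraded while the transgene was made. CTCF ID therefore still held transgenic CTCF, and CTCFL ID held CTCFL. The sample labels give 24 h of treatment and the treatment protocol 2 days. Each line was grown from picked clones, so that clone and transgene cannot be told apart. Nothing in the labels says whether replicates came from separate cultures. The samples of the series include no RAD21 library of untreated or IAA-only cells.

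The deposited tables list peaks with their mean fold enrichment over background and their -log10 q. The read depth behind them is unknown, and a place without a peak is a place where none was called, not a place shown to lack RAD21. Replicates stood far apart: replicate 1 held between 5821 and 22765 peaks and replicate 2 between 181 and 3756. By the names of the peak lists, all replicate 1 libraries came from sequencing lane 5 and all replicate 2 libraries from lane 6, so that replicate and lane cannot be told apart. The replicates are therefore not pooled, and a value is of the replicate named with it. Embryonic stem cell identity was checked in RNA-seq of the same lines: Pou5f1 had a mean normalised count of 18986 in CTCF D and 13914 in CTCFL ID, and all 7 stem cell markers passed the filter on low values. Of these, Esrrb was lower in ID in both lines (log2 fold change -1.08 and -1.36) and Sox2 had -0.79 and -0.89, under the fold threshold. Of 17 markers of trophoblast, endoderm, mesoderm, neural cells and fibroblasts, Mixl1 was higher in ID of the CTCF line, at means of 27.7 and 69.1, and Thy1 was higher and Sox1 lower in the CTCFL line (limma, thresholds below). Some of the 17 had clear counts. Means in CTCF D and CTCFL ID were 1202 and 1060 for Gata4, 839 and 667 for Gata6, 523 and 955 for Col1a1 and 1025 and 1089 for Thy1. Elf5 and Pax6 lay below the filter in both lines. Which cells made these transcripts was not tested. Ctcfl, which marks the CTCFL transgene, had a mean normalised count of 8244 in CTCFL D against 208 in untreated cells of that line. Ctcf did not rise in the RNA libraries labelled CTCF D, at a mean of 3748 against 4701 in untreated cells. These differences from untreated cells were not tested.

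The sequences that stand for the classes of peak are given first, as windows of 30 bases from the GRCm38/mm10 genome. Peaks were searched on both strands, with 50 bases on either side, for a core of the CTCF motif: CC, any 3 bases, AG, any base and GGGC. This core is in capitals in the first 2 sets. The first set is from the strongest RAD21 peaks of CTCF ID replicate 1 that were also in CTCF ID replicate 2 and in both CTCF D libraries, outside the recurrent regions described below. Of 383 such peaks, 132 held the core.
stayed A, intergenic, chr12:86795891-86795920 (minus strand): ggatcagtccactCCCCGAGGGGGCctaaa
stayed B, intron of C130026I21Rik, chr1:85114877-85114906 (minus strand): aaggaccgtCCAGCAGAGGGCagcataggc
stayed C, intergenic, chr4:140958031-140958060 (minus strand): tcgagtctaCCTCCAGGGGGCactcccggc

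The second set is from the strongest RAD21 peaks of D replicate 1 that both lines shared and that no ID library of either line held. Of 9335 such peaks, 3365 held the core, and the letters alone thus do not separate this set from the first. Over all D peaks of replicate 1 the core was in 30.6% of lost and 12% of kept peaks of the CTCF line. In the CTCFL line it was in 29.1% and 12%.
lost A, intron of Pafah2, chr4:134409469-134409498 (plus strand): ctactgtggCCAGCAGAGGGCgtcagaccc
lost B, intron of Col6a5, chr9:105857993-105858022 (minus strand): cagtaatgtCCCATAGAGGGCagccaaagc
lost C, intergenic, chr3:61839800-61839829 (minus strand): cttctgaggCCAGAAGAGGGCagtatatcc
lost D, intron of Phldb2, chr16:45757043-45757072 (plus strand): acaaattgaCCACCAGGGGGCaacctacac

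The third set shows what lay under peaks that appeared in ID replicate 1 of both lines and were in none of the 4 D libraries. Of 270 such peaks, 168 held 5 CA repeats in a row on either strand, which are in capitals here.
appeared A, intergenic, chr14:67165350-67165379 (minus strand): atacatacacCACACACACAcaaataccac
appeared B, intergenic, chr5:147285007-147285036 (plus strand): ataccacataCACACACACAtcacaacaca
appeared C, intron of Igfbp7, chr5:77377568-77377597 (minus strand): agtgtctataCACACACACAtatacagcca
appeared D, intergenic, chr11:90295170-90295199 (minus strand): acatacatagCACACACACAtacacacacc

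The fourth set is from peaks away from CTCF sites that were in D and ID replicate 1 of both lines. Of 1050 such peaks, 679 held the same CA repeat.
constant A, intron of the antisense gene Asb17os, chr3:153838200-153838229 (minus strand): ctgtctctgtCACACACACAcacacacaca
constant B, intron of the lincRNA Gm48538, chr12:17067405-17067434 (minus strand): atacatacaaCACACACACAtacacacaca
constant C, intergenic, chr13:73520941-73520970 (plus strand): tacacacaagCACACACACAcataaacaca

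Stayed A had a fold enrichment of 7.54 and 6.45 in CTCF D replicates 1 and 2, and 6.7 and 6.49 in CTCF ID. In the CTCFL line it was 8.3 in D replicate 1, 6.32 in ID replicate 1 and 5.69 in ID replicate 2, with no peak in D replicate 2. Lost A, in an intron of Pafah2, which encodes a phospholipase, had 7.57 and 6.07 in CTCF D, 7.86 in CTCFL D replicate 1, and no peak in any ID library. Appeared A had 6.2 in CTCF ID replicate 1 and 4.95 in CTCFL ID replicate 1, and no peak in the other 6 libraries. It was the strongest of its class in CTCF ID replicate 1, where the class had a median of 4.11.

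Over all listed peaks, RAD21 peaks were fewer in ID than in D in all 4 pairs. In the CTCF line they went from 22765 to 8593 in replicate 1 and from 3756 to 784 in replicate 2, that is, to 0.377 and 0.209 times the number in D. The CTCFL line went from 20467 to 5821 and from 238 to 181, that is, to 0.284 and 0.761 times. The mean log2 ratio of ID to D was -1.83 ± 0.60 (SD, n = 2 pairs) in the CTCF line and -1.10 ± 1.00 (SD, n = 2 pairs) in the CTCFL line. Replicate libraries of a condition differed by more than D and ID did: CTCF D held 22765 and 3756 peaks. Over 4 pairs an exact two-sided permutation test that flips the sign of each pair cannot go below p = 0.125, and it gave that value. Among peaks at a -log10 q of 5 or more, the log2 ratio was -4.06 and -1 in CTCF replicates 1 and 2 and -4.78 and 0.09 in the CTCFL line, so that CTCFL replicate 2 was no longer lower. With the CLC and LCL lines, which carry CTCF and CTCFL chimeras and were handled alike, 7 of 8 pairs were lower in ID. The mean log2 ratio was -2.09 (exact permutation p = 0.0391, 0.156 after Benjamini-Hochberg adjustment over 4 measures). In the other pair, CLC replicate 1, peaks rose from 1491 to 2470.

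**Figure D1:**
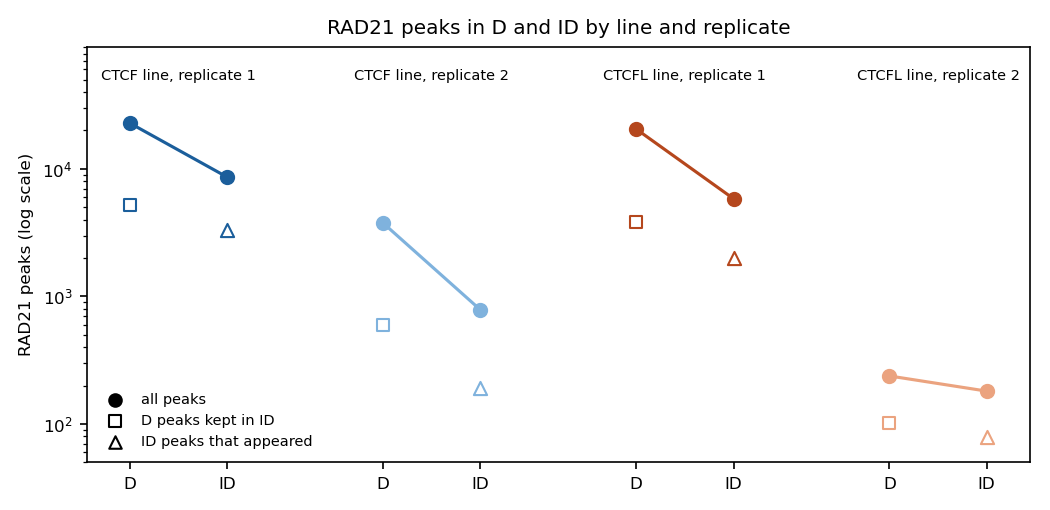
RAD21 peaks (log scale) in D and ID of each line and replicate, with filled points for all peaks, squares for D peaks that overlap an ID peak and triangles for ID peaks that overlap no D peak. Both replicates of the CTCF and CTCFL lines fall from D to ID, and replicate 1 lies above replicate 2 in each condition.

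Most D peaks had no counterpart in ID. An ID peak overlapped 5245 of 22765 D peaks in CTCF replicate 1, which is 23% (95% exact binomial interval 22.5 to 23.6). In CTCF replicate 2 it was 593 of 3756, or 15.8% (14.6 to 17). For CTCFL it was 3821 of 20467, or 18.7% (18.1 to 19.2), in replicate 1 and 101 of 238, or 42.4% (36.1 to 49), in replicate 2. D peaks moved by 10 kb overlapped an ID peak in 0.36% of cases in CTCF replicate 1 and in less in the other 3 pairs. The intervals cover counting error only. These shares depended on q: among peaks at a -log10 q of 5 or more, 4.19% and 38.9% were kept in CTCF replicates 1 and 2 and 3.03% and 78% in the CTCFL line, and the order of the CTCF replicates was reversed. The line that held transgenic CTCF in ID and the line that held CTCFL thus kept similar shares in replicate 1, and the difference between lines was not tested, with 2 pairs in each.

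Among the D peaks, the strongest and the widest were kept more often. The D peaks of each library were split by -log10 q into 4 equal groups, from group 1 (lowest) to group 4 (highest). In CTCF replicate 1, 29.5% of group 4 was kept and between 19.8% and 22.5% of groups 1 to 3. In CTCF replicate 2 the share rose from group to group, from 5.43% over 11% and 13.6% to 33.1%. In CTCFL replicate 1, 27.1% of group 4 was kept and between 14.2% and 17.9% of the others, and in CTCFL replicate 2, 58 of 60 peaks of group 4 and 7 of 60 of group 1. Split by width in the same way, 38.7% of the widest and 12.5% of the narrowest group were kept in CTCF replicate 1, and 34.3% and 10% in CTCFL replicate 1. In replicate 2 these were 26.2% and 7.99% for CTCF and 39 and 15 of 60 peaks for CTCFL. Of the D peaks of CTCFL replicate 2, 52.5% of kept and 0.73% of lost ones lay in the recurrent regions described below. Those regions hold a peak in every RAD21 library by definition. The orders by q and by width in that pair cannot be told apart from this. A wide peak has more bases that can overlap.

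Which protein binds a place in ID was read from FLAG ChIP-seq, as regions called in both replicates: 30317 CTCF sites in CTCF ID and 25097 CTCFL sites in CTCFL ID. RAD21 D peaks at a CTCF site without CTCFL were the class kept least often in all 4 pairs. In CTCF replicate 1, 404 of 6025 of them were kept (6.71%), and in replicate 2, 56 of 1057 (5.3%). Of the CTCFL line, 6.83% of 5152 were kept in replicate 1 and 4 of 30 in replicate 2. The shares in replicate 1 were thus 6.71% in the CTCF line, with transgenic CTCF present in ID, and 6.83% in the CTCFL line, without it. Each rests on 1 pair of libraries, and the difference between lines was not tested.

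D peaks at sites of both proteins were kept in 21.8% of 9380 in CTCF replicate 1 and 20.9% of 2399 in replicate 2. The CTCFL line kept 17.8% of 9228 and 38.9% of 144. At CTCFL sites without CTCF, 1174 of 1695 D peaks were kept in CTCF replicate 1 (69.3%) and 932 of 1573 in CTCFL replicate 1 (59.2%). Replicate 2 held 39 such D peaks in the CTCF line, of which 7 were kept, and 12 in the CTCFL line, of which 8 were kept. The high share in replicate 1 was seen in the line without CTCFL as well, and 94.4% and 95.6% of the ID peaks that stayed at these sites lay mostly in repeats. At neither kind of site, 28.6% and 11.1% were kept in CTCF replicates 1 and 2, and 19.8% and 63.5% in the CTCFL line.

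**Figure D2:**
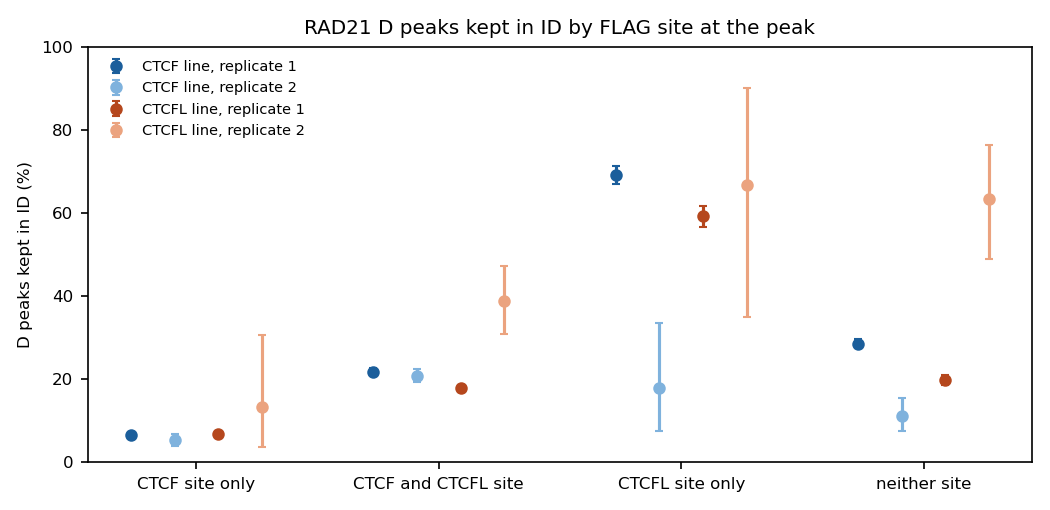
Percent of RAD21 D peaks kept in ID, by whether the peak overlaps a FLAG site of CTCF (from CTCF ID), of CTCFL (from CTCFL ID), of both or of neither, with points for each line and replicate and bars for the 95% exact binomial interval. D peaks at sites of CTCF alone lie lowest in every pair, and those at sites of CTCFL alone lie between 59.2% and 69.3% except in CTCF replicate 2.

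Seen from the CTCF sites, RAD21 followed the strength of CTCF binding in D and was left mainly at the strongest sites in ID in replicate 1 of both lines and replicate 2 of the CTCF line. The CTCF sites of CTCF ID were split by their FLAG -log10 q into 5 equal groups, from group 1 (weakest) to group 5 (strongest). In CTCF D replicate 1 a RAD21 peak lay on 25.4% of group 1 and, group by group, on 32%, 49%, 64.4% and 79.8% of the others. In CTCF ID replicate 1 the same groups held 9.99%, 0.874%, 1.75%, 5.71% and 23.9%. RAD21 was thus left at both ends of the range, most of all at the strong end, and hardly in groups 2 and 3. In replicate 2, group 5 held 32.2% in D and 10% in ID of the CTCF line, and group 1 held 1.95% and 0.627%. In CTCFL cells group 5 of the same sites held 82.1% in D and 18.8% in ID of replicate 1, and 1.63% and 0.28% in replicate 2. CTCFL replicate 2 went another way: groups 1 to 4 held 0.544%, 0.264%, 0.132% and 0.247% in D, and in ID group 1 held the most, with 0.544%.

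On the CTCFL sites of CTCFL ID, split in the same way, the order was another. In CTCFL D replicate 1 RAD21 lay on 31.9% of group 1 and 57.4% of group 5. In CTCFL ID replicate 1 it lay on 16% of group 1 and 10.8% of group 5, with 7.33% in group 4. In CTCFL ID replicate 2 each group held between 0.259% and 0.418%. Stronger CTCFL binding was thus not met by more RAD21 in CTCFL ID. In CTCF ID, where no CTCFL was induced, the same sites held 20.2% in group 1 and 15.5% in group 5 of replicate 1. Replicate 2 of CTCF ID went the other way and rose from group to group, from 0.538% in group 1 to 7.37% in group 5.

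**Figure D3:**
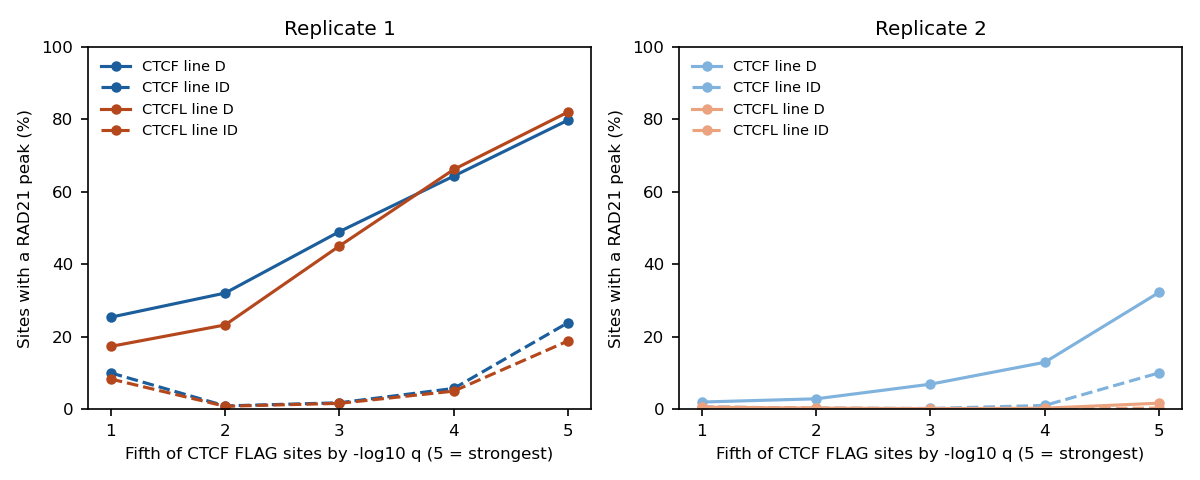
Percent of CTCF FLAG sites of CTCF ID that hold a RAD21 peak, by group of FLAG -log10 q from weak (1) to strong (5), in D (solid) and ID (dashed) of both lines, with replicate 1 left and replicate 2 right. In D replicate 1 the share climbs from group to group, and in ID of replicate 1 it is highest in group 5, at 23.9% and 18.8%.

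The share of RAD21 peaks on a line's own FLAG sites moved in opposite ways in the 2 replicates. In the CTCF line it was 72.2% in D and 30% in ID of replicate 1, and 92.6% and 93.8% in replicate 2. For CTCFL it was 39.6% and 50.9% in replicate 1, and 54.2% and 47.5% in replicate 2. Over the 8 pairs of the 4 lines the mean difference was -4.55 percentage points (exact permutation p = 0.703, adjusted 0.758). Where a peak had to cover 50% of a FLAG site, the mean difference of the CTCF line was 1.7 percentage points in place of -20.5.

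Peaks that appeared in ID made up 38.8% of 8593 in CTCF replicate 1 (3331 peaks) and 24.4% of 784 in replicate 2 (191 peaks). In CTCFL cells they made up 34.1% (1983 peaks) and 43.6% (79 peaks). Set against both D libraries of the line, 3299 and 12 peaks remained in the CTCF line and 1981 and 33 in the CTCFL line. In CTCF replicate 2, 191 peaks thus fell to 12. Appeared peaks were slightly weaker and narrower than stayed ones: their median fold enrichment was 4.06 against 4.2 of stayed peaks in CTCF replicate 1, and their median width was 128 against 171 bases. For CTCFL replicate 1 these were 4.19 against 4.34, and 118 against 160 bases.

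In replicate 1 the appeared peaks lay away from CTCF and within repeats. Of those in the CTCF line, 3.78% were at a CTCF site and 13.4% at a CTCFL site, and in the CTCFL line 5.55% and 19.2%. More than 50% of the bases were soft-masked as repeats in 83.7% and 82.9% of them, against 23.8% and 24.4% of the same peaks moved by 10 kb. The repeats were simple ones. A stretch of 20 bases with fewer than 8 different triplets, here called low complexity, lay in 73% and 70.9% (moved: 17% and 15.4%). The letters CACACACACA lay on either strand of 56.4% and 51.3% (moved: 3.99% and 4.24%), as in the windows of the third set above. The CTCF core was in 0.54% and 0.353% of them, against 2.13% and 1.46% when moved. This make-up was not particular to appeared peaks. Of replicate 1 D peaks that were lost away from CTCF sites, 63.6% of 4565 (CTCF line) and 73% of 4261 (CTCFL line) were mostly masked. In these lost peaks low complexity lay in 56% and 64.8%, and CACACACACA in 39.4% and 44.7%.

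Replicate 2 of the CTCF line did not share this. Of its 191 appeared peaks 93.2% were at a CTCF site, 8.9% lay mostly in repeats and 27.7% held the core. In CTCFL replicate 2, 24.1% of 79 were at a CTCF site and 43% lay mostly in repeats. The same split ran through whole libraries: mostly masked peaks made up 37.6% and 36.8% of peaks in D replicate 1 and 71.2% and 67.1% in ID replicate 1, but 12.9% and 10.5% in D and ID of CTCF replicate 2. CTCFL replicate 2 lay between, with 28.2% in D and 43.6% in ID, the latter above D replicate 1 of either line. In the chimera lines 53.6% to 76.4% of replicate 1 peaks and 6.16% to 45.4% of replicate 2 peaks were mostly masked. The part of the lane in these results was not tested. By the study's methods, reads that mapped to several places were dropped before peaks were called.

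Peaks that stayed fell into 2 kinds in replicate 1. Of 5262 ID peaks that stayed in the CTCF line, 2452 were at a CTCF site, with 29.4% mostly masked and 23.8% with the core. The other 2810 were 92.7% mostly masked, 85.4% of low complexity and 0.0712% with the core. CTCFL replicate 1 held 2002 and 1836 peaks of these kinds, with 28.6% and 92.2% mostly masked. Among D peaks, 38.2% of mostly masked and 13.9% of other peaks were kept in CTCF replicate 1, and 29.8% and 12.2% in CTCFL replicate 1. In CTCF replicate 2 the shares were 13.8% and 16.1%. Without mostly masked peaks, an alternative added after seeing the data, the kept share was 13.3% and 16% in CTCF replicates 1 and 2, so that the replicates lay closer together, and 11.8% and 32.7% in the CTCFL line.

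**Figure D4:**
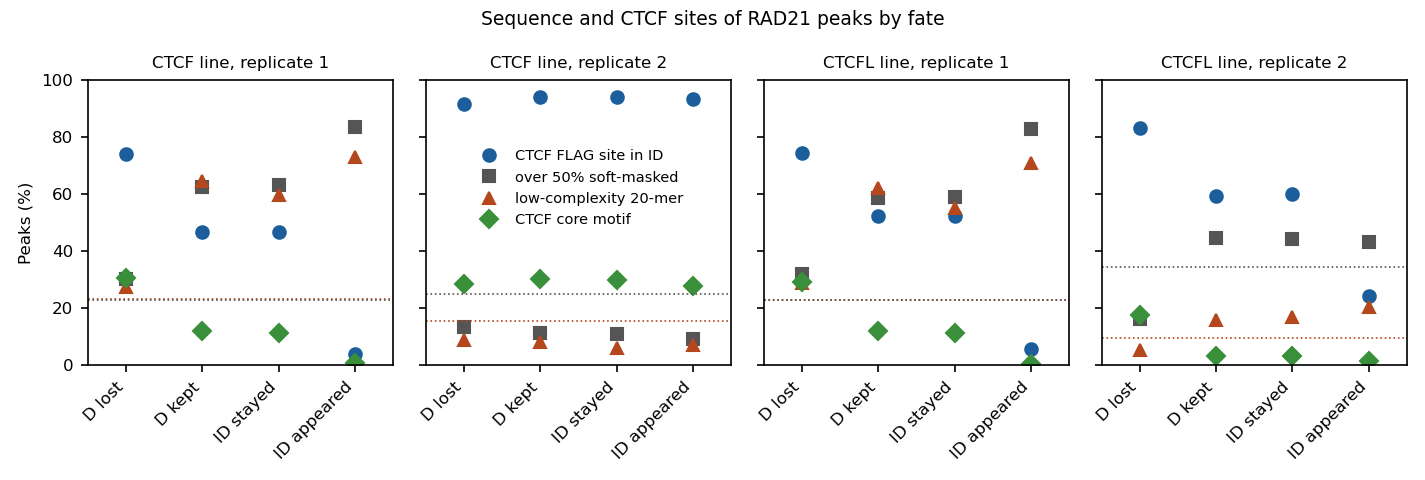
Percent of RAD21 peaks of each fate that overlap a CTCF FLAG site of CTCF ID, are over 50% soft-masked, hold a low-complexity stretch of 20 bases or hold the CTCF core, for each line and replicate. Dotted lines give the masked (grey) and low-complexity (red) shares of all D peaks moved by 10 kb, and in replicate 1 appeared peaks rise above them while the CTCF site share falls to 3.78% and 5.55%.

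Most lost peaks lay on CTCF sites. In replicate 1 of the CTCF line 73.9% of 17520 lost peaks were at a CTCF site and 30.6% held the core, against 2.27% when moved, 67.7% and 26.3% of all its D peaks, and 46.7% and 12% of those kept. In CTCFL cells these were 74.4% of 16646 and 29.1%, against 70.3% and 25.9% of all D peaks. In CTCF replicate 2 lost peaks did not stand out, with 91.7% at a CTCF site and 28.5% with the core, against 93.9% and 30% of kept ones. One stretch of letters recurred among them. The most frequent stretch of 20 bases that is not of low complexity in lost peaks at CTCF sites of CTCF replicate 1, shown in capitals here in 2 of the strongest, lay in 197 of 12955 such peaks, and it holds the core on its other strand.
shared A, intergenic, chr9:69581406-69581435 (minus strand): cagggATCTGATGCCCTCTTCTGGCaactg
shared B, intergenic, chr2:118487996-118488025 (minus strand): tagggATCTGATGCCCTCTTCTGGCctctg
It lay in 147 of 12385 lost peaks at CTCF sites in CTCFL replicate 1, against 0.0309% and 0.0484% of these peaks when moved. Of the ID peaks that appeared in replicate 1, 0 of 3331 and 0 of 1983 held it. Only 126 and 110 of these were at a CTCF site, too few to compare with lost peaks. Of the ID peaks that stayed at CTCF sites in replicate 1, 2 of 2452 and 2 of 2002 held it. The letters were picked from lost peaks, and no difference was tested. Shared A had a fold enrichment of 6.16 in CTCF D replicate 1 and 5.87 in CTCFL D replicate 1, and no peak in the other 6 libraries.

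RAD21 peaks were sorted by place, with a promoter peak defined by a middle within 3 kb of an annotated start site and a gene body peak by a middle inside a gene and farther than that from any start. Such promoter windows cover 11.6% and gene bodies 39% of the chromosomes used. Promoter peaks made up 16.6% of CTCF D and 13.4% of CTCF ID in replicate 1, and 20% and 21.8% in replicate 2. CTCFL cells had 17% and 14.2%, and 33.6% and 37%. The share fell in replicate 1 and rose in replicate 2 of both lines, and over the 8 pairs of 4 lines the mean difference was -1.32 percentage points ± 6.54 (SD, n = 8, exact permutation p = 0.758, adjusted 0.758). At a stricter limit on q (-log10 q of 5 or more) the difference was 17.1 and 2.47 percentage points in CTCF replicates 1 and 2, a mean of 9.78. In the CTCFL line it was 14.7 and -2.31, a mean of 6.2, so that replicate 2 was lower in ID. The means over all peaks were -0.701 and 0.302.

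Gene body peaks made up 41.8% of CTCF D and 42% of CTCF ID in replicate 1, and 36.4% and 32.1% in replicate 2. CTCFL cells had 40.4% and 39.3%, and 23.1% and 24.3%. Over the 8 pairs the mean difference was -1.88 percentage points ± 3.39 (SD, n = 8, exact permutation p = 0.172, adjusted 0.344). Neither share thus differed between ID and D beyond the spread of the pairs.

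The kept share differed less by place than by the FLAG site in all 4 pairs. D peaks at promoters were kept in 20.4% and 16.7% of cases in CTCF replicates 1 and 2, those in gene bodies in 21.7% and 13.2% and those between genes in 25.5% and 17.5%. In CTCFL replicate 1 these were 17.2%, 17% and 20.8%. In CTCFL replicate 2, 45 of 80 promoter, 23 of 55 gene body and 33 of 103 intergenic peaks were kept. Appeared peaks of replicate 1 were at promoters in 11.2% and 11.5% of cases (moved: 13.1% and 14%) and in gene bodies in 46.3% and 43.9% (moved: 44.6% and 44.3%). Nearly all of the latter were intronic, with 0.57% and 0.454% of appeared peaks in an exon (moved: 2.82% and 2.62%). Within 3 kb of the end of a protein-coding gene lay 10% of lost, 7.34% of kept and 4.86% of appeared peaks of CTCF replicate 1, and 10.6%, 11.3% and 14.7% of replicate 2.

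Counted by gene, 2035 of 21728 protein-coding genes had a promoter peak in CTCF D replicate 1 (9.37%) and 501 in CTCF ID replicate 1 (2.31%), with 370 in both. In replicate 2 these were 377 (1.74%), 81 (0.373%) and 58. For CTCFL they were 1875 (8.63%), 342 (1.57%) and 261 in replicate 1, and 32 (0.147%), 29 (0.133%) and 18 in replicate 2. 47 genes of the CTCF line and 17 of the CTCFL line had a promoter peak in D and ID of both replicates. Gene bodies held a peak in 4783 and 1971 genes of CTCF D and ID replicate 1, and in 4170 and 1366 of the CTCFL line. In replicate 2 these were 1071 and 205, and 42 and 32.

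The promoters with the strongest peaks that stayed were mostly at recurrent regions. At the start shared by Aida, which encodes an axin interactor, and Brox, which encodes a protein of the endosomal sorting machinery, the fold enrichment in replicates 1 and 2 was 8.47 and 9.93 in D and 9.8 and 9.67 in ID of the CTCF line. In CTCFL cells it was 9.35 and 10.3 in D and 9.38 and 9.64 in ID. The 8 values overlap between D and ID. At Kpna1, which encodes an importin alpha, replicate 1 gave 5.75 and 7.47 in CTCF D and ID and 6.52 and 7.96 in CTCFL D and ID. Replicate 2 gave 12.6, 11.9, 14.6 and 12.6, above replicate 1 in every condition. The predicted genes Gm10717, Gm10718, Gm10715, Gm17535, Gm10722, Gm10719 and Gm10720 at the start of the assembled chromosome 9 and Gm21738 on chromosome 14 made up the rest of the strongest 10 of a line, with Ltbp4 of the CTCF line, which encodes a protein that binds latent TGF-beta. Those predicted genes are near copies of each other, so that peaks at them are uncertain. Ltbp4 had 4.63 and 5.9 in D and 6.45 and 5.29 in ID of the CTCF line, 5.82 in CTCFL D replicate 1 and no peak in CTCFL ID.

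These recurrent regions were counted over the 16 RAD21 libraries of the 4 lines. Of 45349 merged regions, 45 held a peak in all 16, among them those at Aida and Brox, Kpna1 and the start of chromosome 9. 33 of the 45 also held a FLAG site in D and ID of both lines, and 23 were mostly masked. They made up 0.228% of peaks in CTCF D replicate 1 but 22.7% in CTCFL D replicate 2 and 29.8% in CTCFL ID replicate 2. Without them the kept share of CTCFL replicate 2 was 26.1% in place of 42.4%, and its appeared share 62.2% in place of 43.6%. Since these regions hold a peak in D and ID by definition, the direction of both changes is fixed by construction. Both shares moved by less than 2 percentage points in the other 3 pairs.

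Outside recurrent and mostly masked regions, a rule added after the data were seen, 349 ID peaks of CTCF replicate 1 stayed in both replicates, and 97.1% of them were at a CTCF site. For CTCFL, 20 such peaks remained, of which 9 were at a CTCF site. Under this rule a peak also had to be in ID replicate 2 of its line. Of all peaks in those libraries, 93.8% (CTCF) and 44.2% (CTCFL) were at a CTCF site, so that both shares lay near those of the whole library. The promoters with the strongest of them in the CTCF line, beside Ltbp4, included Dusp13, Psg16, Tmem151b, Dlx3, Pmp22, Ptprf and Ttc12. Dlx3, a homeobox gene of placenta and skin, had 5.13 and 5.51 in D and 4.68 and 5.91 in ID of the CTCF line, 5.04 in CTCFL D replicate 1 and no peak in CTCFL ID. Ptprf, a receptor tyrosine phosphatase gene, had 5.35 and 5.58 in D and 4.35 and 4.68 in ID of the CTCF line, 7.07 and 5 in D of the CTCFL line, and 4.7 in CTCFL ID replicate 1 only. Pmp22, which encodes a myelin protein, had 3.98 and 4.2 in D and 4.64 and 4.5 in ID of the CTCF line and 4.63 and 4.43 in D and ID of CTCFL replicate 1.

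7 protein-coding promoters had a peak in ID replicate 1 of both lines and in no D library: Gm17079, Krt19, Rcvrn, Crygd, Defb28, Dgkz and Anpep. Krt19, a keratin gene, had 4.06 in CTCF ID and 4.5 in CTCFL ID. Crygd, a lens crystallin gene, had 4.63 and 3.81, and Anpep, which encodes aminopeptidase N, 4.22 and 3.67. None of the 7 had a peak in replicate 2 of either line, and none of these peaks was at a CTCF site. In RNA, none of the 4 of them that were tested (Krt19, Crygd, Dgkz and Anpep) passed the test between ID and D in either line (limma, adjusted p under 0.01 and a change over 2-fold), which 11.2% of all genes tested passed in the CTCF and 13.7% in the CTCFL line.

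By contrast 997 promoters had a peak in D replicate 1 of both lines and in no ID library. The strongest were Capn3, Mtus1, Abca14 and Crym, Gm11808, Gm12166, Fbxw7, Trank1, Gm8439 and Adprhl1, and all 10 were at a CTCF site. Capn3, a calpain gene of muscle, had 7.1 and 5.79 in CTCF D and 7.58 in CTCFL D replicate 1. Abca14 and Crym share 1 peak, with 6.47 and 4.61 in CTCF D and 6.41 in CTCFL D replicate 1. Fbxw7, which encodes a ubiquitin ligase subunit that targets MYC and cyclin E, had 6.37 in CTCF D and 5.87 in CTCFL D replicate 1. Mtus1, a microtubule-associated tumour suppressor gene, had 6.53 and 6.85 and fell in RNA in both lines, with a log2 fold change of -1.42 in the CTCF and -2.42 in the CTCFL line. Trank1 fell in the CTCF line (-1.08) and had -0.95 in the CTCFL line, where it missed the fold threshold. The other 5 that were tested, Capn3, Crym, Gm11808, Fbxw7 and Adprhl1, did not pass in either line.

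**Figure D5:**
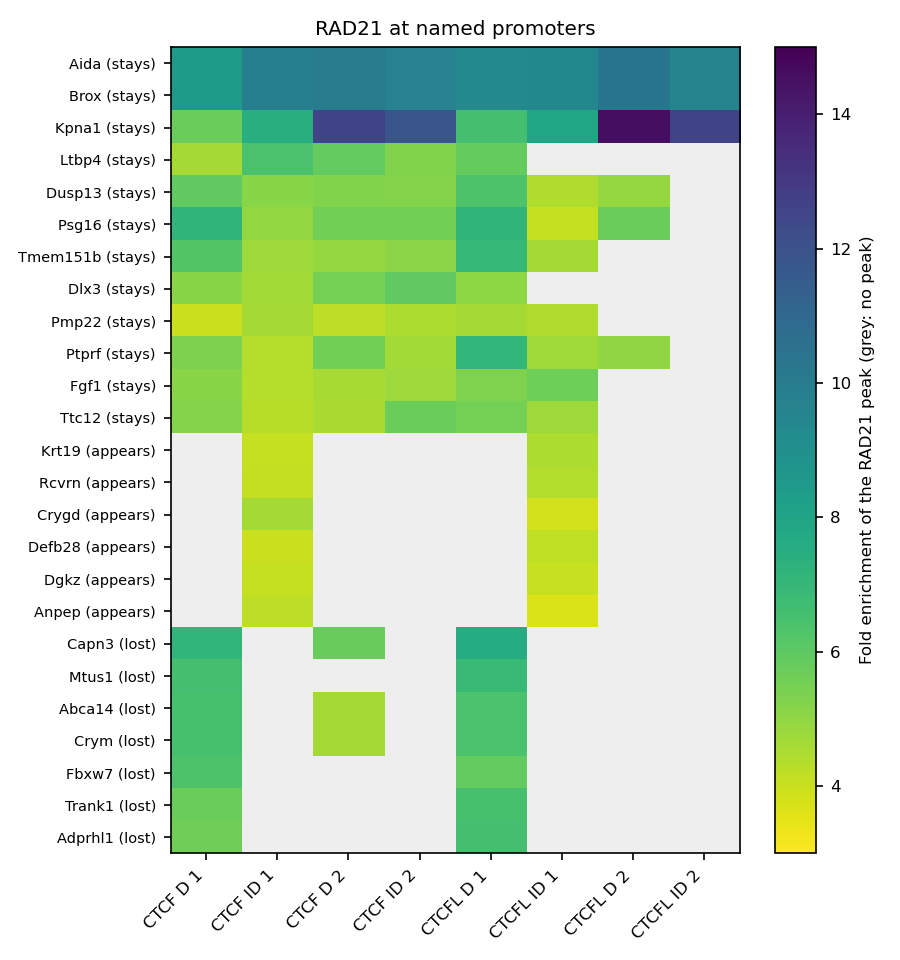
Fold enrichment of the RAD21 peak at named promoters (rows, with their fate) in each of the 8 libraries (columns: line, condition, replicate), with grey for no peak and predicted genes left out. Promoters that stay carry colour in D and ID of the CTCF line, those that appear only in ID replicate 1, and those lost only in D.

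In gene bodies the strongest peaks that stayed were again recurrent regions. The peak in an intron of Chl1, a neural cell adhesion gene, had 12.3 and 11.4 in D and 13 and 11.6 in ID of the CTCF line. Its values in CTCFL cells were 11.6 and 13.1 in D and 11.6 and 12.7 in ID, so that D and ID overlap. Cldn34d, Akap9, Ppp2r2b and Apool had a peak in all 8 libraries as well. The peak in D5Ertd579e had 8.73 and 10.1 in CTCFL ID and lacked a peak in CTCF ID replicate 2. In RNA, Akap9, a kinase anchor gene, and Ppp2r2b, a phosphatase subunit gene at low values (means of 22 in D and 6.95 in ID of the CTCF line), were lower in ID in both lines, and Apool was lower in the CTCF line, with -0.78 in the CTCFL line, under the fold threshold. Of all genes tested, 7.78% were lower in the CTCF and 9.15% in the CTCFL line. Chl1 was tested in the CTCFL line only and was lower there, from a mean of 25.2 in D to 0 in the 2 ID libraries. D5Ertd579e did not pass in either line and Cldn34d was not tested. Outside such regions, the peak in Sos2, which encodes a RAS exchange factor, had 4.75 and 4.73 in D and 6.01 and 6.31 in ID of the CTCF line, with 5.3 and 5.63 in replicate 1 of the CTCFL line and none in replicate 2. This peak was picked by its value in CTCF ID replicate 1, which favours a higher value there, and its difference between D and ID was not tested. Lama3, a laminin gene, had 6.49 and 5.26 in D and 5.88 and 6.05 in ID of the CTCF line. Crocc2, which encodes a ciliary rootlet protein, held a peak in all 8 libraries, from 4.36 in CTCF ID replicate 1 to 5.84 in CTCFL D replicate 1.

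Of 34 gene bodies with a peak in ID replicate 1 of both lines only, the strongest were Slc45a1, Sh3pxd2b, Malrd1, Acaa2 and Cpxm2. Their peaks were between 91.6% and 100% soft-masked, and none was at a CTCF site. Sh3pxd2b, which encodes a podosome scaffold, had 5.12 in CTCF ID and 4.77 in CTCFL ID. Slc45a1, a sugar transporter gene, had 4.92 and 4.97. The strongest of 1817 gene bodies that lost RAD21 were Pafah2, Tmprss15, Ren1, Myoz3 and Chrna9. Ren1, the renin gene, had 7.46 in CTCF D and 7.55 in CTCFL D replicate 1, and Chrna9, a nicotinic receptor gene, 6.86 and 7.64. Neither had a peak in D replicate 2.

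Gene lists were read at promoters against the shares of all protein-coding genes above, mostly in replicate 1. In replicate 2 no list had more than 1 gene with a promoter peak in any library. Of 39 Hox genes, which pattern the body axis, 6 and 4 had a peak in CTCF D and ID replicate 1, and 10 and 1 in the CTCFL line. With a peak in ID these were Hoxb8, Hoxc10, Hoxc8 and Hoxc4 in the CTCF line and Hoxd8 in the CTCFL line. Hoxc10 had 4.83 in CTCF D and 4.18 in CTCF ID replicate 1, and Hoxb8 had 5.24 in CTCF ID replicate 1 but no peak in CTCF D. Hoxc8, with 3.96 in CTCF ID replicate 1 and no peak in CTCF D, was the only one of these 5 Hox genes to pass the RNA test, higher in CTCF ID at low counts. Of 56 clustered protocadherins, cell-surface adhesion genes whose promoters carry CTCF sites, 15 and 3 had a peak in CTCF D and ID replicate 1 and 8 and 2 in the CTCFL line, where Pcdhgb6 and Pcdhgc4 kept it. Of 18 pluripotency genes 2 had a peak in D replicate 1 of each line and none in ID replicate 1, and Sox2, a core pluripotency factor, had one in CTCF ID replicate 2 (5.02). The 11 heat shock genes had no promoter peak in any library.

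Of 5 testis targets of CTCFL, Stra8, the meiotic entry gene, had 6.56 in CTCFL D and 3.54 in CTCFL ID replicate 1, and 4.99 and 5.25 in CTCF D with none in CTCF ID. Its RNA rose in CTCF ID, from a mean normalised count of 2385 to 5320 (log2 fold change 1.16 ± 0.07, SE), and was 11796 and 19586 in CTCFL D and ID, a change of 0.73 that missed the fold threshold. Ctcfl itself had 4.02 in CTCFL ID replicate 1 only, and Rapgef1 6.12 and 4.55 in CTCF D and ID replicate 1. Of 98 genes with ribosomal protein symbols, 10 and 3 had a peak in CTCF D and ID replicate 1. The latter were Rpl22l1, Rpl14 and Rps19bp1, of which the last encodes a binding partner of a ribosomal protein. Of 67 replication-dependent histone genes 6 and 3 had one, and Hist1h4c had it in D and ID replicate 1 of both lines. Of 14 immediate early genes 4 in CTCF D and 3 in CTCFL D replicate 1 had a peak, and none had one in ID. Most of these counts rest on fewer than 10 genes, and no list was tested.

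Replicate 1 of the lines overlapped as follows. CTCF D peaks overlapped a CTCFL D peak in 64.2% of cases, and CTCFL D peaks a CTCF D peak in 71.5%. In ID these were 37.5% and 55.5%. For stayed peaks they were 42.7% and 58.8%, and for appeared peaks 8.35% and 14% (moved by 10 kb: 0.06% of the CTCF line). Peaks that appeared in 1 line were D peaks of the other in part: 845 of 3331 CTCF appeared peaks overlapped CTCFL D, and 733 of 1983 CTCFL appeared peaks overlapped CTCF D. In replicate 2, 81.9% of CTCFL D and 53% of CTCFL ID peaks overlapped those of the CTCF line, and 3 of 191 appeared peaks were shared. Of 14575 regions with a D peak in both lines, 2334 had an ID peak in both, 1806 in the CTCF line only, 991 in the CTCFL line only and 9444 in neither.

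Between replicates, the smaller list lay mostly within the larger. Of CTCF D replicate 2 peaks 92% overlapped replicate 1, and of CTCF ID replicate 2 peaks 65.9%. For CTCFL these were 93.3% and 70.7%. Of 3450 regions with a D peak in both CTCF replicates, 436 held one in both ID replicates (12.6%) and 2059 in neither (59.7%). For CTCFL, 83 of 216 did and 55 held it in neither.

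RNA-seq of the same lines and conditions gave a readout at these promoters that the peaks did not use, with 3 libraries in each group except CTCFL ID, with 2. In bulk RNA, fewer cells with a transcript and less of it per cell cannot be told apart. In the CTCF line 11.2% of 16705 genes passed the test between ID and D, with 3.38% higher and 7.78% lower in ID. For CTCFL, 13.7% of 16840 passed, with 4.52% higher and 9.15% lower. The medians of all genes were 0.04 and 0.11 on the log2 scale. Genes whose promoter lost its D peak in CTCF replicate 1 were higher in 61 and lower in 133 of 1298 tested (4.7% and 10.2%), with a median of 0.06. Genes whose promoter kept it were higher in 15 and lower in 21 of 265 (5.66% and 7.92%), with a median of 0.11. Where a peak appeared, genes were higher in 5 and lower in 12 of 76 (6.58% and 15.8%), with a median of 0.17. By the peaks of replicate 2, 15 and 29 of 255 genes that lost the peak and 3 and 1 of 39 that kept it were higher and lower. Where a peak appeared in replicate 2, it was 0 and 1 of 19.

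In CTCFL replicate 1 genes that lost the promoter peak were higher in 99 and lower in 120 of 1271 (7.79% and 9.44%). Those that kept it were higher in 18 and lower in 13 of 179 (10.1% and 7.26%). Where a peak appeared, genes were higher in 4 and lower in 5 of 54 (7.41% and 9.26%). The medians were 0.22 where the peak was lost, 0.23 where it was kept and 0.08 for genes without a peak. By the peaks of CTCFL replicate 2 the order was the opposite, with medians of -0.05 for 11 genes that lost the peak, -0.22 for 6 that kept it and 0.09 for those without one. No set was tested, and nothing particular to either is drawn from these shares.

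RAD21 at promoters did not follow the level of transcription upwards. Genes were split into 5 equal groups by their mean normalised count per kb of exon in D. In CTCF D replicate 1 a promoter peak was present for 13.2% of the lowest and 9.17% of the highest group, and in CTCF ID replicate 1 for 3.69% and 1.62%. For CTCFL these were 12.9% and 8.35% in D, and 3.08% and 1% in ID. In CTCF replicate 2 they were 2.88% and 1.58% in D and 0.457% and 0.316% in ID. In CTCFL replicate 2 they were 0.139% and 0.139% in D and 0.139% and 0.0347% in ID. The highest group thus held no larger share than the lowest in any of the 8 libraries.

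RNA of cohesin itself was read for 20 genes of the complex and its regulators, all of which were tested. Rad21 had a mean normalised count of 7697 ± 551 in CTCF D and 6733 ± 142 in CTCF ID (SD, n = 3 each), a log2 fold change of -0.19 ± 0.07 (SE). For CTCFL it was 6714 ± 311 (n = 3) and 5111 ± 181 (n = 2), a change of -0.39 ± 0.07. Neither passed the fold threshold, nor did the ring subunits Smc1a and Smc3. Stag1, which encodes a subunit that touches CTCF, had normalised counts of 3692, 4157 and 3394 in CTCF D and of 1764, 1782 and 1816 in CTCF ID, without overlap. In CTCFL cells it had 6051, 6902 and 6427 in D and 2019 and 1979 in ID. It thus fell in both lines, by 1.06 ± 0.08 and 1.69 ± 0.08 (SE) on the log2 scale. Hdac8, the SMC3 deacetylase gene, fell by 1.60 in the CTCF line and had -0.99 in the CTCFL line. Stag2 and the loader gene Nipbl fell by 1.59 and 1.49 in the CTCFL line, and had -0.61 and -0.76 in the CTCF line, which did not pass. Rec8, the meiotic kleisin that takes the place of RAD21, had means of 1513 and 2856 in D and ID of the CTCF line and of 3385 and 6531 in the CTCFL line. Its log2 fold changes of 0.92 ± 0.06 and 0.95 ± 0.07 (SE) lay just under the fold threshold, with adjusted p of 3.53e-08 and 5.56e-10 (limma), and its counts in D and ID did not overlap. In all, 2 of the 20 were lower in the CTCF and 3 in the CTCFL line, and none passed as higher, beside 7.78% and 9.15% of all genes tested that were lower. The difference between lines was not tested.

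Edges of chromatin domains came from Hi-C of the same line, in 2 lists of domains called by different methods, and the lists differed. The sample labels give 24 h for the Hi-C cells too, but the treatment protocol gives them a longer treatment than the cells for RAD21 ChIP. Peaks and edges may thus be of different treatment times. By the insulation list (crane), a peak middle lay within 40 kb of an edge of the D map for 20.7%, 20.4% and 21.3% of kept, lost and appeared peaks of CTCF replicate 1 and for 19.9%, 20.4% and 18.3% of replicate 2. For CTCFL these were 19.7%, 19.7% and 19.4% in replicate 1 and 18.8%, 24.1% and 22.8% in replicate 2. By the other list (hicratio), they were 27.6%, 28.7% and 17.3% in CTCF replicate 1 and 44.9%, 35.9% and 41.4% in replicate 2. For CTCFL they were 30.9%, 27.6% and 18.4% and 46.5%, 38% and 36.7%. In replicate 1 of both lines appeared peaks were thus least often near an edge of the second list, and by the first the fates lay close together. The shares were not tested, and since a window of 40 kb is wider than the move of 10 kb, moved peaks give no background here.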

How the data were processed

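ChIPmentation with a RAD21 antibody and with FLAG antibody, RNA-seq and Hi-C domain lists were taken from the deposited files. According to the study's methods, the authors aligned ChIP reads with Bowtie2 to GRCm38/mm10, kept uniquely mapped reads, removed duplicates and called peaks for each library with MACS (broad peaks for RAD21). The submitters' processing notes name SAMtools 1.3 and Trim Galore 0.4.4. The control library is not given in the sources used here. The deposited peak lists hold fold enrichment, as a mean over the peak, and -log10 q, both computed by MACS for the authors, and no read counts, so that the depth is unknown. The deposited RNA values are signal, that is, gene counts that the authors divided by a size factor for each library. Whole reads could be recovered from them (100% of values within 0.1 of a whole number), with between 6847072 and 43154741 reads in the libraries of D and ID other than CTCFL ID replicate 2, whose values lay too near whole numbers as deposited for its depth to be read. The table holds no columns of per-sample values without a sample here.

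Overlapping peaks of 1 list were merged on chromosomes 1 to 19 and X. A D peak was kept if at least 1 base overlapped an ID peak of the same line and replicate number, and lost otherwise. An ID peak stayed if it overlapped a D peak, and appeared otherwise. Peaks moved by 10 kb served as background. A FLAG site was a region called in both FLAG replicates. Promoters lay within 3 kb of a start site of GENCODE vM21 (basic set), and the repeat share is the soft-masked share of the reference. RAD21 measures were compared by an exact permutation test that flips the signs of replicate pairs. RNA was tested with limma 3.58.1 (R 4.3.3) on log2(value + 1) in 1 fit for each line over untreated, IAA, D and ID libraries, for genes with a mean of at least 10. Genes were called at a change over 1 on the log2 scale, in either direction, with p adjusted after Benjamini-Hochberg below 0.01. Overlap counting and the RNA fit were tested on simulated data. Sequences were read with pysam 0.24.0 from the GRCm38 reference.

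Named promoters were the 10 (gene bodies the 5) with the highest fold enrichment in ID replicate 1 of each line among those that stayed in both replicates, and with the highest mean over both lines among those that appeared or were lost. The members, gene lists and rules were chosen with earlier results of these data known. Named peaks outside repeats and recurrent regions, members of the gene lists with an ID peak, the masked and recurrent alternatives and edgeR 4.0.16 on recovered reads were chosen after the data had been examined. Alternatives covered q, peak overlap, promoter window, peak merging, replicate pairing, filters and libraries left out.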

Additional observations from a re-analysis of the deposited data

How the results depend on the processing

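The mean log2 ratio of peak number stayed below 0 in both lines under each alternative run on it. At a -log10 q of at least 5 it was -2.53 in the CTCF and -2.35 in the CTCFL line, where replicate 2 turned to 0.09. The kept share of the CTCF line (19.4% on average) was 30.9% with as many top peaks from D as from ID and 12.3% with 50% overlap of both peaks, and without pairing replicates (D and ID peaks of either replicate, no replicate block) it was 31%. The kept share of the CTCFL line (30.6%) was 39%, 22.9% and 45.9% under these. At the stricter q the means were 21.5% and 40.5%, but replicates 1 and 2 moved to 4.19% and 38.9% (CTCF) and 3.03% and 78% (CTCFL). The appeared share depended on the rule most. In the CTCF line it was 68.9% with equal numbers, 55.1% with 50% overlap and 19.96% without the pairing. In the CTCFL line it was 60.7%, 59.1% and 26.1% under these, 21% at the stricter q and 48.3% without recurrent regions. With equal numbers and with 50% overlap fewer D peaks can be met, by construction. Leaving out recurrent regions, which hold a peak in D and ID by definition, likewise raises the appeared share by construction.

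Differences in place shares, in percentage points, changed sign under several choices. The promoter difference was 9.78 (CTCF) and 6.20 (CTCFL) at the stricter q, where CTCFL replicate 2 was at -2.31. It was 0.239 without mostly masked peaks in the CTCF line. In the CTCFL line it was -0.138 with equal numbers, -2.30 without the pairing and -0.555 without recurrent regions. The gene body difference was -5.65 and -4.45 at the stricter q, 0.0670 and -1.33 without the pairing and, in the CTCFL line, 2.86 with equal numbers and -1.54 with protein-coding start sites. The own FLAG difference was 1.70 in the CTCF line with 50% of the site covered, and in the CTCFL line -1.66 with equal numbers and -2.34 without recurrent regions. The cause was not tested. Leaving out a replicate gave ranges of -3.24 to 1.84 and -2.80 to 3.4 for promoters, -4.31 to 0.125 and -1.07 to 1.20 for gene bodies and -42.2 to 1.18 and -6.69 to 11.3 for own FLAG sites, CTCF line first.

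Over 4 lines the mean log2 ratio of peak number was -2.18 without the CTCF line (exact permutation p = 0.156), -2.42 without the CTCFL line (0.0938) and -1.68 without the LCL line (0.0938). The promoter difference was 1.08 without the CLC line and the own FLAG difference 0.775 without the CTCF line. The number of RNA calls stayed within 1.5 times under each alternative, but calls higher in ID did not: they fell from 564 to 360 in the CTCF line at a minimum mean of 50, and from 762 to 474 without CTCFL ID replicate 2 and 458 with edgeR on recovered reads. With the replicate number as a block the calls in both directions were 1826 and 2153 in place of 1864 and 2303, and the numbers did not pair the RNA libraries (correlations of deviations between -0.0529 and 0.0534). The unknown read depth of the peak lists limits each count of lost and appeared peaks, most in replicate 2 of the CTCFL line with 238 and 181 peaks.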

Other observations

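The recurrent regions, which held a RAD21 peak in all 16 libraries of the 4 lines, were unevenly spread: 10 of 45 lay on chromosome 9. The peaks on the first assembled part of that chromosome had fold enrichments between 10.7 and 16.8 at Gm10717 and Gm10718 in the 8 libraries of the CTCF and CTCFL lines, with D and ID overlapping.

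Of the meiotic partners of cohesin other than Rec8, Smc1b had mean normalised counts of 1500 and 905 in D and ID of the CTCF line and 1919 and 1344 in the CTCFL line, and Stag3 2017 and 2139, and 3631 and 4004. None of these changes passed. Of the 14575 regions with RAD21 in D of both lines in replicate 1, more had an ID peak in the CTCF line only (1806) than in the CTCFL line only (991), in libraries of 8593 and 5821 peaks, and this difference was not tested.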
